A study of Mus musculus with 10 samples.

Results

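Retinoid signalling was described here through 9 genes, ordered from the uptake of vitamin A to the nuclear receptors: Stra6, Aldh1a1, Cyp26b1, Crabp1, Rara, Rarb, Rxra, Rxrb and Rxrg. They were listed by symbol and chosen on earlier results of the same contrast of lateral against medial shell, so the levels, differences and tests given for them are a description and support nothing beyond themselves. Of the 9, 7 had a row among the 20483 genes of the table and all 7 were among the 15596 genes tested. The levels of Cyp26b1 and Rara were not analysed here. The accumbens lies ventrally in the striatum, and the study compared pieces of its lateral shell (5 libraries) with pieces of its medial shell (5 libraries) from mice whose genotype is given as WT and whose cells are labelled as neural, with no treatment, strain, sex or age in the labels. Geo-seq, which amplifies RNA from small areas taken out of a section with a laser, gave the complementary DNA, and a TruePrep kit gave the libraries. The labels call the libraries biological replicates without saying whether each came from its own animal, so the p-values measure the spread between these libraries, which may be technical.

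Vitamin A circulates as retinol on the carrier RBP4, and the membrane protein STRA6 takes it into cells. Retinol dehydrogenases such as RDH10 oxidise retinol to retinal, retinal dehydrogenases such as ALDH1A1 make retinoic acid from it, CRABP1 and FABP5 carry the acid within the cell, and CYP26 enzymes break it down. Retinoic acid binds the receptors RARα, RARβ and RARγ, which sit on DNA as pairs with an RXR. In the striatum, RARβ and RXRγ are the receptors for which spiny projection neurons are best known.

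RAR and RXR pairs bind direct repeats of a short hexamer, and the promoter of Rarb carries the textbook case. The bases below were taken from RefSeq on GRCm38.p6, whose promoter windows run from 250 bases before to 50 bases after each gene's start. The Rarb stretch, chr14:16575506-16575535 on the minus strand, is shown because it holds the only repeat found among the promoters of the 9 genes. Its capitals mark the hexamers, which lie 5 bases apart, on the gene's own strand, from 53 to 37 bases before the start. In the GENCODE annotation 4 of the 7 Rarb transcripts span it and 2 have an exon there.
Rarb: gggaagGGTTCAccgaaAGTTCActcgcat
The 250 bases before the RefSeq start of Stra6, chr9:58128838-58129087 on the plus strand, are shown because Stra6 had the largest difference of the 7 genes. They hold none of the 4 hexamers searched, which says only that these letters are not in this window. They lie inside the gene as GENCODE draws it: 3 of its 14 transcripts span them, with no exon there.
Stra6: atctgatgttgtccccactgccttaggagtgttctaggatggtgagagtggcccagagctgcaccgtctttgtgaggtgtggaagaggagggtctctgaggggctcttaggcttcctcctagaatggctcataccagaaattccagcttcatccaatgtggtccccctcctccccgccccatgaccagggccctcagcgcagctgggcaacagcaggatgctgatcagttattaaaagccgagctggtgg

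The search of both strands covered the standard hexamer AGGTCA, the upstream copy of Rarb (GGTTCA), its downstream copy (AGTTCA) and the variant GGGTCA, and any 1 of the 4 occurs in 43.7% of the 32851 RefSeq promoters. In the 19 promoters of the 9 genes, 8 held at least 1 hexamer. A pair of them on the same strand with 5 bases between occurs in 0.0974% of all promoters, with 1 base between in 0.222% and with 2 bases between in 0.268%. Of the 85 promoters of the 61 matched genes among all the retinoid genes listed, 3 held such a pair: those of Rarb, of Cyp26a1 with 5 bases between and of Bco1 with 1 base between. A match in letters is not a bound site. Binding was not measured here, and levels per gene do not say which start a transcript used.

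Levels are in TPM (transcript abundance scaled to a fixed library total), which divide by gene length and by the library's total and keep no sequencing depth, so the depth behind each value is unknown. Each library listed 15402 to 17003 genes above 0, mitochondrial genes took 23.5% to 35.3% of the TPM, and rank correlations across genes between libraries ran from 0.796 to 0.869. The RNA AY036118 stood at 82500 to 144000 TPM in 8 libraries but at 1.38 TPM in lateral library 5 and 1.42 TPM in medial library 2, so these libraries stand apart and results are also given without them. The labelled tissue was checked on 10 markers of spiny projection neurons: all were in the table, their summed level was 3490 to 5920 TPM in lateral libraries and 3360 to 5530 TPM in medial ones, and none passed the test. Each difference is the lateral minus the medial mean of log2(TPM + 1), a scale on which changes of low genes come out too small. It passed where the limma p, adjusted by Benjamini-Hochberg over the 15596 genes, was under 0.05. Levels ran higher in the medial group for 68.7% of tested genes, and the median difference over all of them was -0.21. In bulk tissue, fewer cells of a type and less RNA per cell cannot be told apart.

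Stra6 and Rarb were higher in the medial shell, and all 5 medial libraries lay above all 5 lateral libraries for both. Crabp1 and Aldh1a1 had higher medians in the lateral shell, with overlapping libraries and no pass. None of the 3 RXR genes passed. Of the 7 genes, 2 passed as higher in the medial shell, where 1.10% of all tested genes did, and 0 passed as higher in the lateral shell, where 0.385% did. Medial libraries lay wholly above lateral ones for 2 of the 7, against 3.39% of all tested genes, and the opposite held for 0 of the 7, against 0.859%. Because this contrast chose the genes, nothing is read from these shares. The median difference of the 7 was -0.07.

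**Figure D1:**
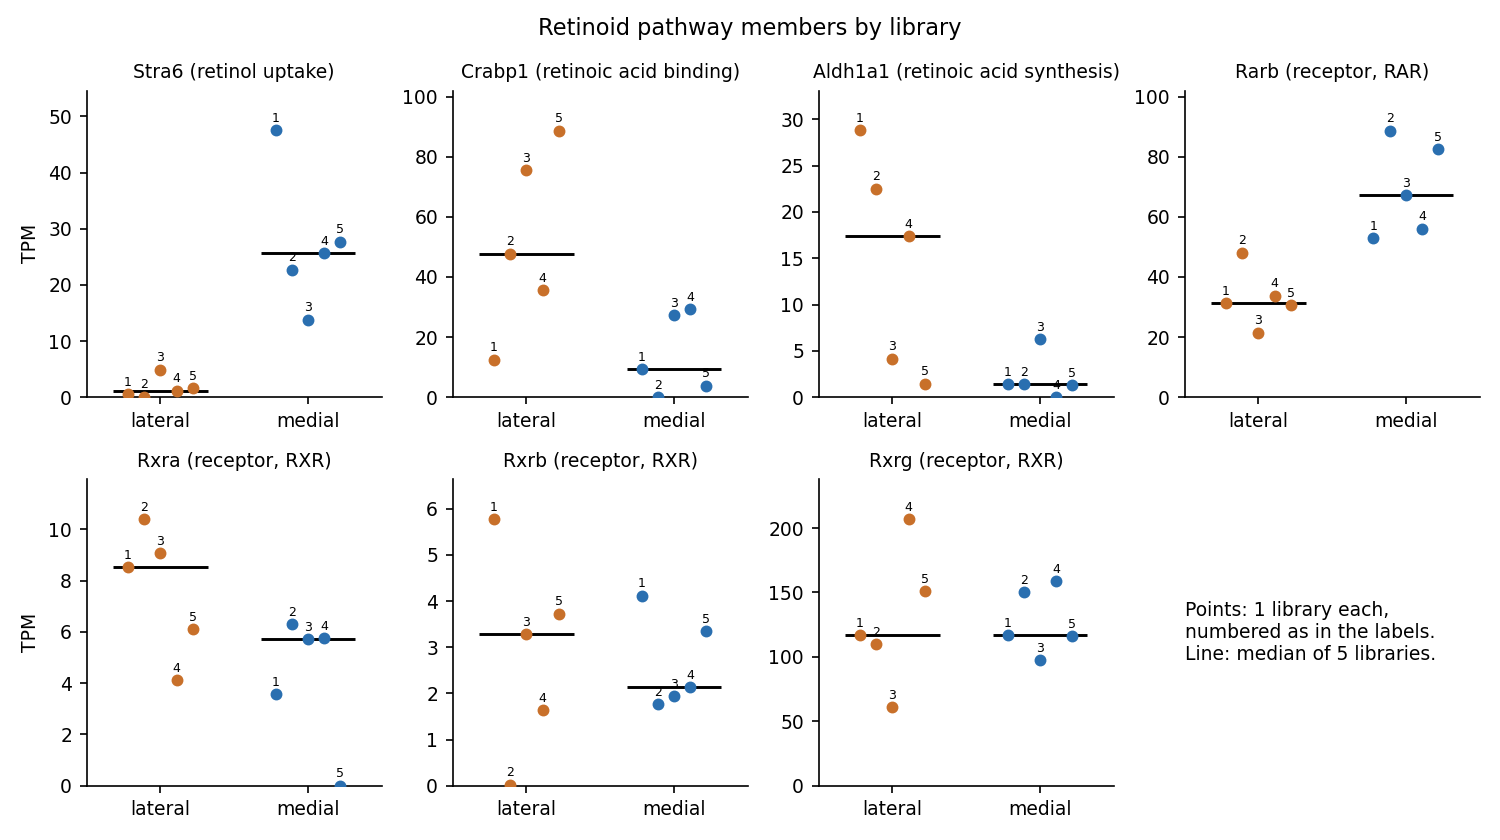
TPM of each of the 7 retinoid genes in the 5 lateral (orange) and 5 medial (blue) libraries, each point 1 library with its label number and each line the group median, on linear axes that start at 0 and differ between panels. Stra6 and Rarb have separated groups, with Stra6 at 0.0984 to 4.88 TPM in lateral libraries and 13.8 to 47.5 TPM in medial ones, while the points of the other 5 genes overlap.

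Stra6 had the largest difference of the 7. Stra6 (chr9:58063788-58153996, plus strand, GRCm38) encodes the retinol transporter at the cell surface. Its lateral libraries 1 to 5 stood at 0.506, 0.0984, 4.88, 1.18 and 1.63 TPM, and its medial libraries 1 to 5 at 47.5, 22.7, 13.8, 25.6 and 27.7 TPM. Every medial library was above every lateral library, lateral 3 came nearest to the medial group, and medial 1 was the highest. The means were 1.66 ± 1.90 TPM (SD, n = 5) in lateral and 27.5 ± 12.4 TPM (SD, n = 5) in medial libraries. The log2 difference was -3.57 ± 0.45 (standard error, limma adjusted p = 0.00223), or -3.36 relative to the median of all genes. Without the pair of libraries that stand apart it was -3.66 (limma adjusted p = 0.0175). Its GENCODE exons share no base with the 2 genes that overlap its span, Gm16131 and Ccdc33.

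STRA6 is also known from the barriers of the brain, and cell types of those barriers were looked at beside it. Of 9 markers of leptomeningeal fibroblasts 6 were in the table, and their summed level was 27.9, 8.13, 0.731, 4.45 and 1.75 TPM in lateral libraries 1 to 5 and 5.63, 8.44, 60.0, 3.34 and 17.9 TPM in medial libraries 1 to 5. The groups overlapped, with the highest sum in medial 3 and the lowest in lateral 3. Only 2 of these markers were tested, and both had a higher fitted level in the medial shell, beside 68.7% of all tested genes. Col1a2 had a log2 difference of -0.98 (limma adjusted p = 0.404) and Ogn of -0.86 (limma adjusted p = 0.496). Of 9 markers of choroid plexus epithelium 5 were in the table, summing to 5.48 to 13.8 TPM in lateral libraries and 3.0 to 15.3 TPM in medial ones. Ttr, the defining transcript of that epithelium, was listed at 0 in 8 of the 10 libraries, with 3.95 TPM in lateral 1 and 1.43 TPM in medial 1. The 10 endothelial and mural markers summed to 226 to 542 TPM in lateral libraries and 221 to 397 TPM in medial ones, with none past the test. The part of these cell types in the Stra6 values was not tested.

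For the oxidation of retinol, the RNA of a gene outside the 9 was higher in the medial shell. Rdh10 (chr1:16105774-16133734, plus strand), encoding a dehydrogenase that turns retinol into retinal, stood at 3.20, 2.31, 8.94, 4.66 and 4.01 TPM in lateral libraries and at 17.9, 16.2, 11.8, 14.4 and 11.6 TPM in medial ones. The groups did not overlap, and lateral 3 was again the lateral library nearest to the medial ones. The log2 difference was -1.54 ± 0.31 (standard error, limma adjusted p = 0.0304). This pass was lost when any library except lateral 3 was left out, with log2 differences of -1.60 to -1.37 and limma adjusted p-values of 0.0554 to 0.0823. It was also lost without both libraries that stand apart, at -1.48 (limma adjusted p = 0.150), and under the 3 other scalings, at -1.53 to -1.28 (limma adjusted p = 0.0504 to 0.0840). Over all tested genes, 68.7% had a lower fitted level in the lateral shell, the median difference was -0.21 and 1.10% passed as higher in the medial shell. All 8 tested genes for the exchange between retinol and retinal had a lower fitted level in the lateral shell. Their median difference was -0.67, and Rdh10 alone passed. Under median-ratio scaling and quantile normalization all 8 stayed lower in the lateral shell, with median differences of -0.47 and -0.48. Under rescaling without mitochondrial and haemoglobin genes 9 were tested. Of these, 8 were lower and 1 was higher in the lateral shell, with a median difference of -0.47.

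Retinoic acid synthesis was represented by the RNA of Aldh1a1 (chr19:20492715-20643465, plus strand), encoding a retinal dehydrogenase. Its lateral libraries 1 to 5 stood at 28.8, 22.5, 4.15, 17.4 and 1.46 TPM and its medial libraries at 1.38, 1.41, 6.28, 0 and 1.29 TPM. The lateral group was split, with libraries 1, 2 and 4 above every medial library and libraries 3 and 5 inside the medial range. The medians were 17.4 TPM in lateral libraries and 1.38 TPM in medial ones. The log2 difference of 2.15, with a 95% confidence interval of 0.65 to 3.65, did not pass (limma adjusted p = 0.159). Without both libraries that stand apart it was 2.68 (limma adjusted p = 0.145).

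Aldh1a1 also marks a subset of midbrain dopamine neurons, whose axons reach the accumbens, so the dopamine transcript Th was set beside it. Th stood at 0, 44.6, 75.2, 39.1 and 1.24 TPM in lateral libraries and at 0, 6.75, 0, 15.3 and 15.6 TPM in medial ones. Lateral libraries 2 and 4 were high in both Th and Aldh1a1, lateral 1 was high in Aldh1a1 with Th listed at 0, and lateral 3 was high in Th with Aldh1a1 at 4.15 TPM. Of 5 dopamine neuron markers 4 were in the table, summing to 5.78 to 83.8 TPM in lateral libraries and 17.9 to 50.0 TPM in medial ones. Among them Ddc, encoding aromatic amino acid decarboxylase, passed as higher in the medial shell, at 4.09 ± 2.14 against 22.4 ± 8.21 TPM (SD, n = 5 each), a log2 difference of -2.24 (limma adjusted p = 0.0130). Slc18a2 stood at 4.36 ± 1.99 against 5.23 ± 2.74 TPM (SD, n = 5 each), a log2 difference of -0.17 (limma adjusted p = 0.874). Nr4a2 was listed at 0 in 6 of the 10 libraries and was not tested. The part of dopamine axons in the Aldh1a1 values was not tested.

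Aldh1a2, the retinal dehydrogenase known from meninges, did not reach the test's minimum and was picked for mention after its values were seen. It stood at 0.807 TPM in lateral 3, 4.45 TPM in medial 3 and 1.48 TPM in medial 5 and was listed at 0 elsewhere. Medial 3 and medial 5 were also the medial libraries with the highest sums of leptomeningeal markers, 60.0 and 17.9 TPM. Lateral 1 had a sum of 27.9 TPM with Aldh1a2 listed at 0. Lateral 3, the only lateral library with Aldh1a2, had the lowest sum of all, 0.731 TPM. The part of those cells in the Aldh1a2 values was not tested.

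For the binding of retinoic acid, the RNA of Crabp1 had its higher median in the lateral shell. Crabp1 (chr9:54764748-54773110, plus strand), encoding a cytosolic carrier that is known to pass retinoic acid to breakdown, stood at 12.5, 47.7, 75.4, 35.7 and 88.7 TPM in lateral libraries and at 9.30, 0, 27.3, 29.3 and 3.87 TPM in medial ones. Lateral libraries 2, 3, 4 and 5 lay above every medial library, and lateral 1 lay within the medial range. The medians were 47.7 TPM in lateral libraries and 9.30 TPM in medial ones, and the log2 difference of 2.38, with a 95% confidence interval of 0.63 to 4.14, did not pass (limma adjusted p = 0.186). It was 1.61 without medial 2, where Crabp1 was listed at 0 (limma adjusted p = 0.299), and 1.36 without both libraries that stand apart (limma adjusted p = 0.441). The spread within each region was wide, from 12.5 to 88.7 TPM in lateral libraries and from 0 to 29.3 TPM in medial ones.

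Markers of interneurons were set beside Crabp1. All 7 were in the table, 6 had a higher fitted level in the lateral shell and none passed. Of all tested genes, 68.7% had a higher fitted level in the medial shell. The log2 differences were 5.11 for Sst, 4.16 for Npy, 2.16 for Pvalb, 1.41 for Nos1, 0.75 for Lhx6, 0.05 for Chat and -0.16 for Slc5a7. Their sums were 3060, 496, 5660, 1820 and 1360 TPM in lateral libraries 1 to 5 and 31.2, 27.9, 59.6, 374 and 1760 TPM in medial libraries 1 to 5. Sst and Npy made up most of the sum in every lateral library, at 2580 and 2960 TPM in lateral 3. Lateral 3 was high in both the sum and Crabp1 and medial 2 was lowest in both, while lateral 2 had the lowest lateral sum with Crabp1 at 47.7 TPM and medial 5 the highest medial sum with Crabp1 at 3.87 TPM. The part of interneurons in the Crabp1 values was not tested.

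Other carriers of retinoic acid gave no pass. Fabp5, encoding a fatty acid-binding protein that can carry retinoic acid to PPARδ, was at 44.9 ± 7.38 TPM in lateral libraries and 74.3 ± 14.0 TPM in medial ones (SD, n = 5 each). Its groups did not overlap, but the log2 difference of -0.71 did not pass (limma adjusted p = 0.0751). Crabp2, whose product delivers retinoic acid to RAR, was also picked after its values were seen: it stood at 49.0, 5.18, 1.77, 0.575 and 0 TPM in lateral libraries and was listed at 0 in all 5 medial libraries, too few for the test. Its lateral level rested on library 1. The sum of leptomeningeal markers was 27.9 TPM in that library, the highest lateral sum, but 60.0 TPM in medial 3 and 17.9 TPM in medial 5, where Crabp2 was listed at 0, and the part of those cells in the Crabp2 values was not tested.

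Among the receptors, Rarb differed. Rarb (chr14:16430839-16819156, minus strand), encoding RARβ, stood at 31.3, 48.1, 21.5, 33.8 and 30.5 TPM in lateral libraries and at 52.8, 88.7, 67.2, 56.0 and 82.4 TPM in medial ones. Every medial library was above every lateral library, and lateral 2 at 48.1 TPM and medial 1 at 52.8 TPM came nearest to each other. The means were 33.1 ± 9.61 TPM in lateral libraries and 69.4 ± 15.8 TPM in medial ones (SD, n = 5 each). The log2 difference was -1.06 ± 0.22 (standard error, limma adjusted p = 0.0344), or -0.86 relative to the median of all genes. This pass was lost when any library except lateral 2 and medial 1 was left out, with log2 differences of -1.13 to -0.93 and limma adjusted p-values of 0.0604 to 0.0991, and without both libraries that stand apart, at -0.95 (limma adjusted p = 0.180). It was also lost under median-ratio scaling, at -0.86 (limma adjusted p = 0.0578), and with no mean-variance trend (limma adjusted p = 0.0866).

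Rarb lies across another gene. Of its 5265 annotated exon bases, 1793 (34.1%) are also exon of Top2b on the opposite strand, and 227 (4.31%) are exon of Gm48162. No source used here gives the strand setting of the counting, so reads from Rarb and Top2b may not have been told apart. Top2b, encoding DNA topoisomerase IIβ, stood at 15.9, 17.8, 17.9, 24.2 and 23.8 TPM in lateral libraries and at 24.1, 18.8, 27.1, 26.8 and 26.2 TPM in medial ones. Its groups overlapped and its log2 difference of -0.30 did not pass (limma adjusted p = 0.506).

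Rxrg was the most abundant of the 7 genes, with nearly the same mean in both regions. Rxrg (chr1:167598384-167639623, plus strand), encoding RXRγ, stood at 117, 110, 61.0, 207 and 151 TPM in lateral libraries and at 117, 150, 97.4, 159 and 116 TPM in medial ones. Lateral libraries 3 and 4 held the lowest and the highest values of all 10, and the medial range lay inside the lateral one. The means were 129 ± 54.2 and 128 ± 25.7 TPM (SD, n = 5 each), and 96.0% of tested genes had a lower mean. The log2 difference was -0.07 with a 95% confidence interval of -0.65 to 0.52 (limma adjusted p = 0.929), and its sign changed with the scaling.

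The other RXR genes were far lower and were not resolved. Rxra (chr2:27676440-27762957, plus strand), encoding RXRα, stood at 8.53, 10.4, 9.07, 4.12 and 6.10 TPM in lateral libraries and at 3.58, 6.30, 5.71, 5.75 and 0 TPM in medial ones. Lateral libraries 1, 2 and 3 lay above every medial library and lateral 4 and 5 within the medial range. The log2 difference was 0.94 with a 95% confidence interval of -0.17 to 2.05 (limma adjusted p = 0.408), and it was 0.42 without medial 5, where Rxra was listed at 0. Rxrb (chr17:34031812-34038399, plus strand), encoding RXRβ, stood at 5.78, 0.0251, 3.29, 1.63 and 3.73 TPM in lateral libraries and at 4.12, 1.77, 1.94, 2.14 and 3.35 TPM in medial ones. The lateral libraries held both the lowest and the highest value. Its log2 difference of -0.12, with a 95% confidence interval of -1.20 to 0.95, did not pass (limma adjusted p = 0.931), and its sign changed with the scaling and without lateral 2 (0.29).

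RARγ, the other RAR in the table, was also low. Rarg stood at 4.11 ± 1.12 TPM in lateral libraries and 4.57 ± 3.09 TPM in medial ones (SD, n = 5 each). Its log2 difference of 0.02 did not pass (limma adjusted p = 0.985).

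**Figure D2:**
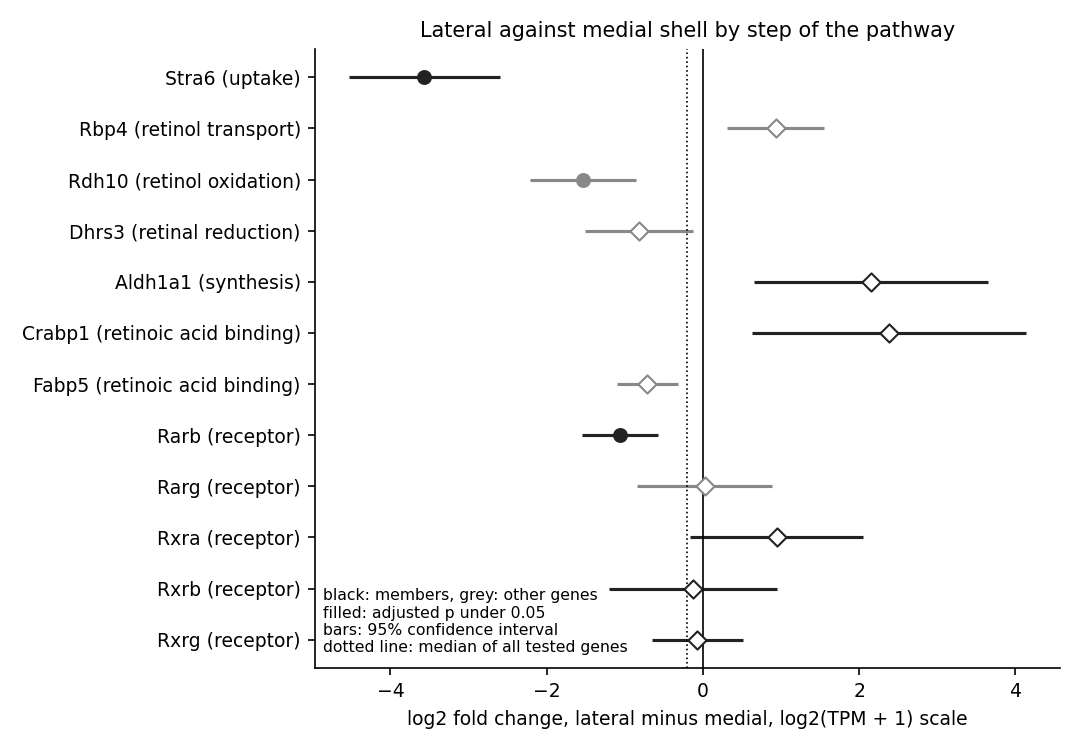
Log2 difference (lateral minus medial mean of log2(TPM + 1)) with its 95% confidence interval for 12 retinoid genes in pathway order, black for the 7 chosen genes and grey for others, filled where the limma adjusted p was under 0.05, with the median of all tested genes dotted at -0.21. Filled points, all left of the dotted line, are Stra6 (-3.57), Rdh10 (-1.54) and Rarb (-1.06), while Aldh1a1 (2.15) and Crabp1 (2.38) lie right of 0 with wide intervals.

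Levels of different genes are set side by side here in TPM, and how evenly the amplification treated them was not tested. Rarb values may include reads from Top2b, which also holds for the ratios below. In medial libraries the medians ran from Rxrg at 117 TPM through Rarb at 67.2, Stra6 at 25.6, Crabp1 at 9.30, Rxra at 5.71 and Rxrb at 2.14 to Aldh1a1 at 1.38 TPM. Rxrg, Rarb and Stra6 did not overlap with each other there, while each lower neighbour overlapped with the next. In lateral libraries the order of medians was Rxrg at 117, Crabp1 at 47.7, Rarb at 31.3, Aldh1a1 at 17.4, Rxra at 8.53, Rxrb at 3.29 and Stra6 at 1.18 TPM, and every pair of neighbours overlapped. Stra6 thus stood behind only Rxrg and Rarb in the medial order and last in the lateral one.

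Ratios between these genes inside a library do not depend on the library's total. Rarb per Rxrg was 0.268, 0.438, 0.353, 0.163 and 0.202 in lateral and 0.451, 0.593, 0.690, 0.352 and 0.713 in medial libraries. The medians were 0.268 and 0.593, and medial 4 fell among the lateral values. Stra6 per Rarb was 0.0162, 0.00205, 0.227, 0.0350 and 0.0533 in lateral and 0.900, 0.255, 0.206, 0.458 and 0.336 in medial libraries. Only lateral 3 and medial 3 crossed. Rxrg made up 83.2% to 97.3% of the summed TPM of the 3 RXR genes in lateral and 92.7% to 97.2% in medial libraries, and was the main RXR transcript in all 10.

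**Figure D3:**
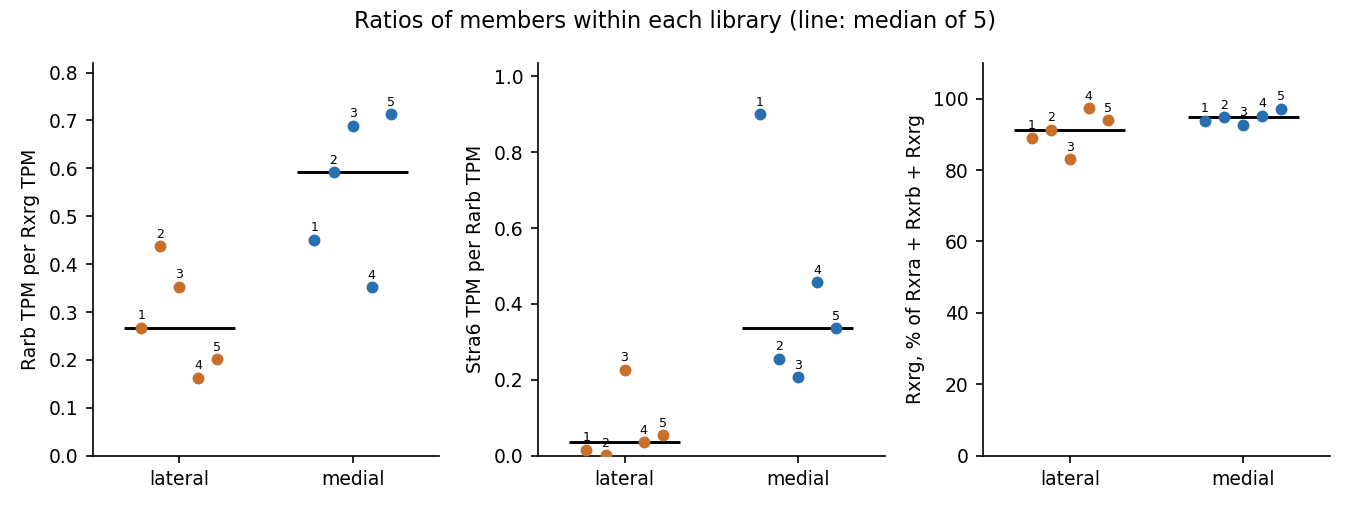
Ratios within each library for the 5 lateral (orange) and 5 medial (blue) libraries, with group medians as lines: Rarb per Rxrg, Stra6 per Rarb, and Rxrg as a percent of the 3 RXR genes, on linear axes from 0. Rarb per Rxrg has medians of 0.268 and 0.593, Stra6 per Rarb crosses only between lateral 3 and medial 3, and Rxrg stays above 83% everywhere.

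Outside the 9 genes, 71 more retinoid genes were counted by step. Of these 45 were in the table and 37 were tested. Of all tested genes, 68.7% had a higher fitted level in the medial shell. Among the 37, 27 had a higher fitted level in the medial and 10 in the lateral shell. Their median difference was -0.32 beside -0.21 over all tested genes. The split was 23 and 14 under median-ratio scaling and 22 and 15 under quantile normalization. Rdh10 alone passed, as higher in the medial shell, where 1.10% of all tested genes did, and none passed as higher in the lateral shell. Medial libraries lay wholly above lateral ones for 3 of the 37, against 3.39% of all tested genes.

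Most of these genes gave no pass at any step. Rbp4, the carrier of retinol in blood, was at 23.6 ± 9.28 TPM in lateral libraries and 11.2 ± 1.68 TPM in medial ones, a log2 difference of 0.93 (limma adjusted p = 0.143). Dgat1, encoding an acyltransferase that can esterify retinol, was at 10.2 ± 3.93 and 20.2 ± 6.65 TPM, a difference of -0.94 (limma adjusted p = 0.156). Dhrs3, encoding a reductase that returns retinal to retinol, was at 11.9 ± 4.79 and 20.8 ± 5.68 TPM, a difference of -0.82 (limma adjusted p = 0.251). Of the receptors that pair with RXR, 4 were tested and 0 passed, with Nr4a1 at 23.8 against 44.6 TPM (log2 difference -0.84) and the thyroid hormone receptor gene Thrb at 7.73 against 14.0 TPM (log2 difference -0.76). All 12 coactivators and corepressors were tested and 0 passed. In the medial shell 9 of the 12 had a higher fitted level, beside 68.7% of all tested genes. The count was 6 under median-ratio scaling and under quantile normalization. Ncoa2, a coactivator, was at 7.33 against 16.0 TPM (log2 difference -1.53, limma adjusted p = 0.241), and Lcor, a corepressor, at 6.78 against 12.5 TPM (log2 difference -0.86, limma adjusted p = 0.242).

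The list of genes described as retinoic acid targets was partial and left out genes counted at other steps, among them Rarb, Stra6 and Dhrs3. Those 3 had higher fitted levels in the medial shell. The listed genes did not share a direction: of the 6 tested, 3 were higher in each region and 0 passed. Meis2, a homeobox gene of striatal neurons, was at 57.4 ± 12.2 TPM in lateral libraries and 70.5 ± 9.89 TPM in medial ones (log2 difference -0.31, limma adjusted p = 0.460). Its relative Meis1 stood at 7.74, 3.16, 3.54, 0 and 4.11 TPM in lateral libraries and was listed at 0 in every medial library except medial 2, at 1.41 TPM. Meis1 did not pass either (limma adjusted p = 0.186). Drd2, the dopamine D2 receptor gene, was at 121 ± 55.8 and 109 ± 44.1 TPM (SD, n = 5 each), a log2 difference of 0.10.

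The genes most like Stra6 and Rarb over the 10 libraries were ranked by Pearson's r of log2(TPM + 1). Ranked were the tested genes averaging 5 TPM or more, except those whose symbol is Gm followed by digits or closes in Rik. All 10 points share the split between regions, so a high r is a description of that split as well as of the libraries within it. Genes picked by r share high and low libraries largely by selection, so such sharing is no separate result. Nearest to Stra6 were Rdh10 (r = 0.975), Kcnip1 (r = 0.972), which encodes a subunit of A-type potassium channels, and Gpr12 (r = 0.938), an orphan receptor gene. Kcnip1 was at 5.91 ± 4.21 TPM in lateral libraries and 66.7 ± 12.1 TPM in medial ones, and Gpr12 at 13.6 ± 5.21 and 48.6 ± 15.4 TPM. Both had separated groups, and in both, as in Stra6 and Rdh10, lateral 2 was the lowest and lateral 3 the highest lateral library.

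Nearest to Rarb were Tbck (r = 0.963), Nxf1 (r = 0.961), a factor of messenger RNA export, and Odf2 (r = 0.954), a centrosomal protein gene. Tbck stood at 8.42 ± 0.807 TPM in lateral libraries and 14.4 ± 2.43 TPM in medial ones with no overlap, and Nxf1 and Odf2 overlapped between the regions. In all 3, as in Rarb, lateral 2 was the highest lateral library, lateral 3 the lowest and medial 2 the highest of all 10.

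**Figure D4:**
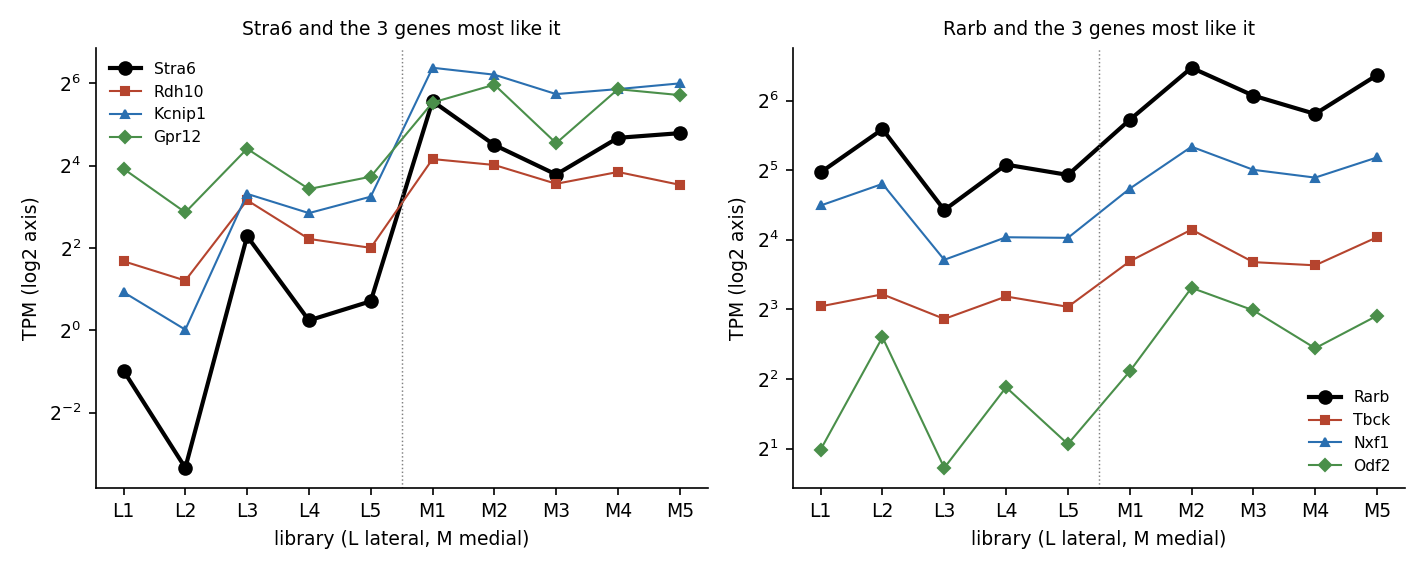
TPM on a log2 axis in each of the 10 libraries (L, lateral; M, medial) for Stra6 with Rdh10, Kcnip1 and Gpr12, and for Rarb with Tbck, Nxf1 and Odf2; lines only join the points of 1 gene, and library numbers have no order. Lateral 2 is the lowest library for Stra6 (0.0984 TPM) and all 3 genes beside it, and medial 2 is the highest for Rarb (88.7 TPM) and all 3 beside it.

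Markers of glia stand beside all of the above. Over all tested genes, 68.7% had a higher fitted level in the medial shell. As higher in the medial shell 1.10% of them passed, and as higher in the lateral shell 0.385%. All 8 microglial markers had a higher fitted level in the lateral shell and 3 passed, with sums of 370 to 577 TPM in lateral libraries and 173 to 364 TPM in medial ones. For oligodendrocytes 8 of 9 were higher in the lateral shell and 0 passed, with sums of 303 to 1020 TPM and 112 to 497 TPM. Of 10 astrocyte markers 7 were higher in the medial shell and Ntsr2 alone passed, with sums of 621 to 816 TPM in lateral libraries and 707 to 889 TPM in medial ones. The 4 ependymal markers in the table summed to 2.48 to 26.3 TPM in lateral libraries and 4.74 to 22.4 TPM in medial ones. The only marker of cortical glutamatergic neurons in the table, Neurod6, was at 0 to 3.31 TPM in lateral libraries and 0 to 1.06 TPM in medial ones. Their part in the values of the retinoid genes was not tested.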

How the data were processed

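The authors deposited 1 table of TPM values for 20483 genes with a column per library. Per the submitters' processing notes, fastp 0.20.0, HISAT2 2.1.0, StringTie 1.3.4, featureCounts 1.6.3 and the build GRCm38 (mm10) were used, with no role or order given. No source used here gives the annotation or the use of strand. Differences were computed with limma 3.58.1 in R 4.3.3 (empirical Bayes, mean-variance trend) on log2(TPM + 1), over genes with at least 1 TPM in at least 5 of the 10 libraries. The script was checked on simulated data. Positions and exon overlaps came from GENCODE M21. Among 4272 genes averaging 20 TPM or more, 20 had a 0 in some library. Whether a 0 is a failed estimate or a missing transcript was not tested. The retinoid genes, lists, tests and alternatives were chosen with earlier results of these data known. Named beside the 9 genes are those that passed and the 2 with the smallest p in each retinoid list. Also named are the 3 ranked genes most like Stra6 and Rarb, and marker genes where a list moved with a result. Drd2, Crabp2, Aldh1a2, Top2b and the dopamine, interneuron and glial markers named were picked after their values were seen. Alternatives changed the pseudocount, filter, scaling, variance model, replicate block and libraries. Figures were drawn with matplotlib 3.10.9. A listed retinoid gene is not reported here, and the counts leave it out.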

Additional observations from a re-analysis of the deposited data

Results flagged for a closer look

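In 38 groups of 5 libraries of the named retinoid genes, 2 held a library whose distance from the nearest other exceeded 0.71 of the group's range, where chance gives about 1 in 20. Rxra was listed at 0 in medial library 5, with the next lowest medial value at 3.58 TPM. Meis1 was at 1.41 TPM in medial library 2 and at 0 in the other medial libraries.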

How the results depend on the processing

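Stra6 passed under all 22 alternatives, with log2 differences of -4.59 to -2.25 and limma adjusted p-values up to 0.0276. Crabp1, Aldh1a1 and Rxra kept their sign and passed under none of the 22. Rarb lost its pass under 12 alternatives and Rdh10 under 14. Besides the left-out libraries these were the replicate block and median-ratio scaling (-0.86, limma adjusted p = 0.0578 for Rarb, and -1.35, limma adjusted p = 0.0753 for Rdh10). For Rarb they were also no variance trend (limma adjusted p = 0.0866). For Rdh10 they were also quantile normalization (-1.28, limma adjusted p = 0.0840) and rescaling without mitochondrial and haemoglobin genes (-1.53, limma adjusted p = 0.0504). So 1 of the 7 chosen genes passed under median-ratio scaling, no trend, the replicate block and without both libraries low in AY036118, and 1 to 2 without 1 library. Of the other retinoid genes counted, where Rdh10 alone passed, 0 passed under median-ratio scaling, quantile normalization, rescaling, the replicate block and without both libraries, and 0 to 1 without 1 library. Rxrb changed sign at a pseudocount of 5 (0.00464), median-ratio scaling (0.0344), quantile normalization (0.148) and, over single left-out libraries, ran from -0.39 to 0.29. Rxrg changed sign under median-ratio scaling (0.141), quantile normalization (0.00222) and rescaling (0.00508), and ran from -0.26 to 0.17 over left-out libraries. Rarg changed sign at a pseudocount of 5 (-0.0214) and without both libraries (-0.179), and ran from -0.15 to 0.26 over left-out libraries. Counts over all genes, 171 higher in medial and 60 in lateral, became 107 medial at a pseudocount of 0.1, 82 medial and 88 lateral under median-ratio scaling, 100 and 86 under quantile normalization, 111 and 34 without a trend, 45 and 19 with the replicate block, and 31 and 12 without both libraries. Over left-out libraries they ran from 56 (medial 2) to 188 and from 23 (lateral 2) to 69, falling by over 1.5 times without lateral 1, 4 or 5 or medial 2, 3, 4 or 5 for both counts and without lateral 2 for the lateral count. The median of all genes moved from -0.21 to -0.02 under median-ratio scaling and to -0.00101 under quantile normalization. The cause of these changes was not tested. Rxrb and Rarg have no value under the filter of a mean of 5 TPM. Same-numbered libraries did not deviate together (correlations of -0.0534 to 0.0417, with no lateral library correlating best with its own number). Noise of single libraries can hide a shared animal, so these correlations cannot say whether the numbers pair the libraries. With the replicate block the limma adjusted p was 0.0693 for Rarb and 0.0992 for Rdh10.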
